A study of Drosophila melanogaster with 16 samples.

Results

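The cells described here are the clock neurons of the adult fly brain that held RNA of both neuropeptide F (NPF) and cryptochrome (cry), the marker pair of a subset of the lateral dorsal neurons (LNds). A cell was taken when it held at least 2 UMIs (distinct captured RNA molecules) of NPF, at least 1 of cry and at least 3 of Clk, per, tim and cwo together, none of RunxA, and fewer than 100 UMIs of Pdf per 10000. The rule found 314 of 23921 cells, called NPF/cry cells below, and its members were chosen by measured values, so NPF, cry and the other 6 rule genes are described in these cells with no test. Hr51 and ct, which stand as the other markers of this LNd group, were not used by the rule but were named as its markers from these same data.

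The study sorted green fluorescent cells from dissociated brains in which Clk856-GAL4, combined with the split driver R11B03-AD;VT002670-DBD, expressed UAS-EGFP, and sequenced 3′ ends of RNA from single cells in droplets. Flies of both sexes in equal number were kept in light and dark cycles at a constant temperature, and the 10 libraries covered 6 Zeitgeber times (ZT, hours after lights on), with 1 library at ZT10, 1 at ZT18 and 2 at each of the other 4 times. All libraries share this genotype, each pools brains of both sexes, so male and female cells cannot be told apart here, and what is seen is limited to cells that the combined drivers label. The NPF/cry cells were set against the 10605 other cells with at least 4 UMIs of Clk, per, tim and cwo together (other clock cells), and against the 327 of those with at least 100 UMIs of Pdf per 10000 (Pdf clock cells), which carry the peptide of the ventral lateral neurons.

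Fly clock neurons run a feedback loop in which CLK and CYC drive per and tim, whose proteins return to repress them, while vri and Pdp1 form a second loop that sets Clk RNA. The LNds take part in the evening bout of activity, and those that carry cry can sense light on their own. NPF is the fly relative of vertebrate neuropeptide Y and is known for roles in feeding, sleep and courtship.

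The label fitted most but not all of the cells. Of the 314 NPF/cry cells, 273 held an Hr51 UMI (86.9%, exact binomial 95% interval 82.7 to 90.5%) and 280 a ct UMI (89.2%, 85.2 to 92.4%), against 4.58% and 13.8% of other clock cells. The median depth was 12387 UMIs per NPF/cry cell and 6440 per other clock cell, so these shares are not at equal depth. Per 10000 UMIs (TP10K) and over all cells of each group, Hr51, a nuclear receptor, stood at 3.3 in NPF/cry cells and 0.175 in other clock cells, and ct, a homeodomain factor, at 8.45 and 1.87. Both markers were found in 261 cells, 1 of them in 31, and neither in 22.

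Those 22 cells differed from the rest in other genes too. Of them, 19 held RNA of VGlut, the vesicular glutamate transporter, and their VGlut level was 12.7 TP10K, close to the 13.3 TP10K of other clock cells, whereas it was 0.0787 TP10K in the 261 cells with both markers. Their levels of the peptide Dh44 (29.9 TP10K) and of the receptor TrissinR (7.99 TP10K) were also above those of the 261 cells (5.37 and 0.962 TP10K). They were shallower, with a median of 7051 UMIs against 13452. The markers thus go against the label in these 22 cells, which are called only by the rule here.

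Another set of cells stood apart within the rule. In 13 of the 314 cells, RNA of ion transport peptide (ITP) ran from 115 to 3066 UMIs with a median of 1346, while among the other 301 no cell held more than 1 ITP UMI. These ITP-high cells came from 5 libraries, 12 of the 13 held Hr51 RNA, 2 held ct RNA and 1 held VGlut RNA. A further 31 clock cells with at least 10 ITP UMIs lay outside the rule, all of them with fewer than 2 NPF UMIs.

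**Figure D1:**
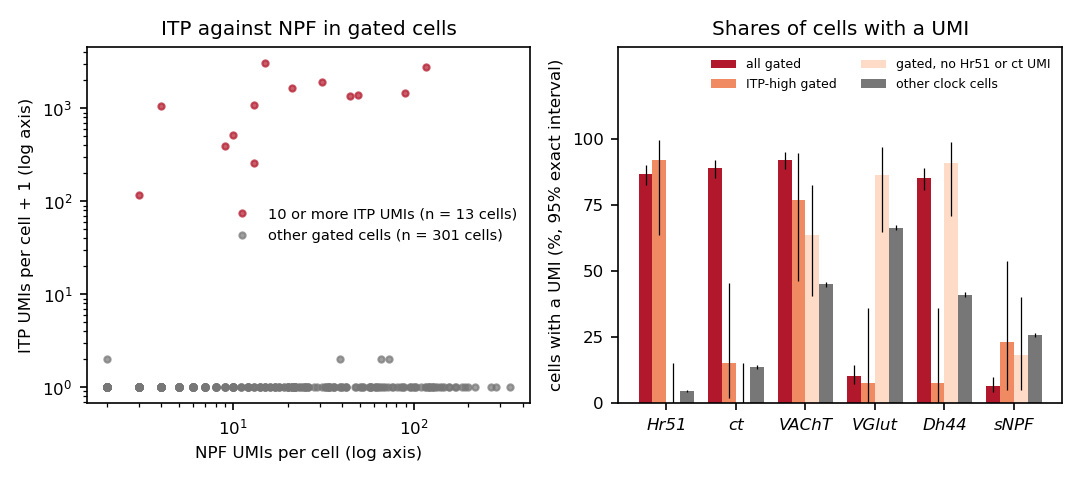
Left, ITP UMIs plus 1 against NPF UMIs in each of the 314 NPF/cry cells (gated cells, log axes), with the 13 ITP-high cells at 115 or more ITP UMIs and the other 301 at 0 or 1. Right, share of cells with a UMI of 6 genes (percent, bars) with exact 95% intervals (lines) in NPF/cry cells, their ITP-high cells, those with neither Hr51 nor ct, and other clock cells, which differ in depth.

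The cells just inside and just outside the NPF threshold changed gradually. Among cells that met every other condition, 42 held exactly 2 NPF UMIs, of which 69.0% had an Hr51 UMI, 85.7% a ct UMI and 14.3% a VGlut UMI. The 107 cells with 1 NPF UMI had 45.8%, 61.7% and 33.6%, and the 3465 cells with none had 3.72%, 18.6% and 63.5%. Median depth was 9747, 9558 and 9477 UMIs in these 3 sets, so the shares were taken at nearly the same depth. A minimum of 2 NPF UMIs thus left out cells that carried the other markers.

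How many cells the rule took depended on the hour. It took 4 and 52 cells from the ZT02 libraries, 17 and 83 at ZT06, 75 at ZT10, 7 and 40 at ZT14, 16 at ZT18, and 14 and 6 at ZT22. That was 4.43% of the clock cells of the ZT02 to ZT10 libraries and 1.46% of those of the ZT14 to ZT22 libraries. The library with 4 cells (ZT02 replicate 1) was left out of every fit, and the other 9 were summed per library, the library being the replicate.

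Library totals ran between 3518519 and 32385361 UMIs, and NPF/cry cells held between 1660 and 24954 UMIs. Across the libraries, the summed level of 5 neuron markers was 50.4 to 75.7 TP10K in NPF/cry cells and 60.4 to 77.2 in other clock cells. That of 8 glia markers was 0.227 to 2.18 against 2.26 to 13.3 TP10K, that of 7 photoreceptor markers at most 0.435 against 0.110 to 6.8 (inaD and chp were at 0 in NPF/cry cells), and 7 of 8 fat body, hemocyte and muscle markers were at 0. Of the cell barcodes, 55 occurred in more than 1 library, among them that of 1 NPF/cry cell, and no pair of NPF/cry cells shared one.

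NPF itself followed the time of day. In the NPF/cry cells it stood at 42.2 TP10K at ZT02, 33.5 and 37.1 at ZT06, 16.7 at ZT10, 9.70 and 5.89 at ZT14, 3.91 at ZT18, and 5.0 and 2.56 at ZT22. All 3 libraries of ZT02 and ZT06 were above all others. Because the rule asks for 2 NPF UMIs, these values leave out the cells with the least NPF, so NPF was also read in a set that the rule did not use it for: cells that met the clock, RunxA and Pdf conditions and held at least 2 UMIs each of Hr51 and ct in place of NPF and cry. This set, chosen after the data had been seen, had 370 cells in 10 libraries, of which 225 were also NPF/cry cells and 127 held fewer than 2 NPF UMIs, and 142 counted among the other clock cells.

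In these Hr51/ct cells NPF RNA had a large swing over the day. It stood at 51.1 and 40.0 TP10K at ZT02, 24.6 and 37.7 at ZT06, 12.5 at ZT10, 2.40 and 3.58 at ZT14, 1.56 at ZT18, and 1.68 and 0.531 at ZT22. A cosine curve of 24 h fitted to the library sums gave a swing (highest against lowest point of the fitted curve) of 5.38 on the log2 scale with its peak at ZT5.4, and passed edgeR's quasi-likelihood test with Benjamini-Hochberg adjustment (adjusted p = 8.64e-06, 10 libraries). Libraries were collected in pairs on 5 days, and with the collection date as a block the swing of NPF was 5.67 (adjusted p = 5.27e-17). The share of Hr51/ct cells with at least 2 NPF UMIs was 91.9% in ZT06 replicate 2 and 15.8% in ZT22 replicate 2, at median depths of 12169 and 15276 UMIs.

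The light sensor cry changed less. It stood at 2.69 and 4.78 TP10K at ZT02, 4.76 and 5.44 at ZT06, 7.61 at ZT10, 2.40 and 2.74 at ZT14, 2.42 at ZT18, and 4.02 and 4.17 at ZT22 in the Hr51/ct cells, so that ZT10 was highest, ZT22 lay below ZT06 and above ZT14 and ZT18, and the ZT02 libraries spanned the values of ZT22. The same test gave a swing of 0.95 on the log2 scale and did not pass (edgeR, adjusted p = 0.382). With the collection date as a block cry did pass (swing 0.92, peak ZT5.4, adjusted p = 0.0258). NPF lies on chromosome 3R (16609220 to 16611325, plus strand) and cry on 3R (19212154 to 19215442, plus strand) of the dm6 genome, where exons of cry overlap those of vib on the other strand. Whether counting used the strand is not given in the sources used here, so UMIs of overlapping genes cannot be told apart. The same holds for tim, per, CG15236, toy, hth, twit, zfh2, Mmp2 and Nep1, whose exons also overlap an annotated gene or element on the other strand.

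**Figure D2:**
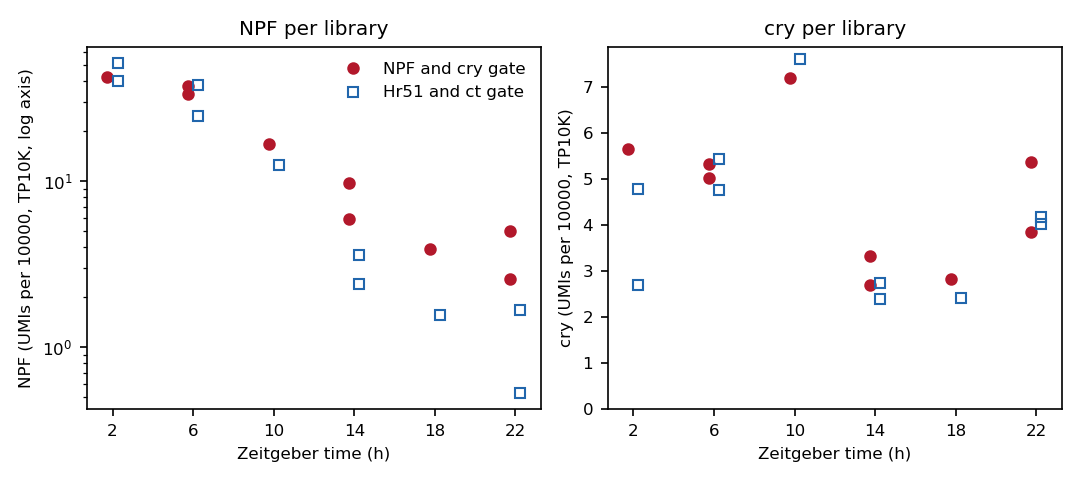
Levels of NPF (log axis) and cry (linear axis) in UMIs per 10000 by Zeitgeber time, each point being 1 library, in NPF/cry cells (filled circles) and in Hr51/ct cells (open squares), which were chosen without NPF and cry. NPF sits at 24.6 to 51.1 in the Hr51/ct cells of ZT02 and ZT06 and at 0.531 to 3.58 from ZT14 to ZT22, while cry stays between 2.40 and 7.61 in the same cells.

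The core clock genes of the rule are given without a test, since they chose the cells. In NPF/cry cells tim stood at 2.94 TP10K at ZT02, 5.13 and 6.32 at ZT06, 14.2 at ZT10, 34.3 and 27.6 at ZT14, 22.4 at ZT18, and 4.88 and 8.11 at ZT22, all 3 libraries of ZT14 and ZT18 being above all others, with a fitted peak at ZT14.5. The fitted peak of per was at ZT15.4 and that of cwo, a repressor of the loop, at ZT14.1. Clk, their activator, had its fitted peak at ZT2.2, with 4.35 TP10K at ZT02 against 0.434 and 0.516 at ZT14.

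Of the 3 loop genes outside the rule, both members of the second loop cycled. The repressor vri stood at 1.58 TP10K at ZT02, 5.52 and 3.88 at ZT06, 13.3 at ZT10, 16.2 and 18.3 at ZT14, 12.8 at ZT18, and 5.31 and 3.74 at ZT22, so that all libraries from ZT10 to ZT18 were above all others. Its fitted swing was 2.93 on the log2 scale with a peak at ZT14.0 (edgeR, adjusted p = 9.30e-06). The activator Pdp1 had 34.1 TP10K at ZT02, 37.3 and 34.6 at ZT06, 63.8 at ZT10, 253 and 219 at ZT14, 209 at ZT18, and 117 and 105 at ZT22. Its peak came later, at ZT16.6, with a swing of 3.08 (adjusted p = 2.02e-08). The CLK partner cyc, which is known to be constant, lay between 0.125 and 0.510 TP10K and did not pass (adjusted p = 0.888).

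Over the whole transcriptome, 255 of 6187 genes with at least 20 UMIs passed the rhythm test in NPF/cry cells at an adjusted p under 0.05 (4.12%; edgeR, 9 libraries), and 672 had an unadjusted p under 0.05. With the collection date as a block 438 genes passed, 242 of them among the 255. That fit had 2 residual degrees of freedom, and ZT14 replicate 1 added nothing to it because the other library of its day was left out. A spread shared across genes gave it 549.5 further degrees of freedom, against 15.1 beside 6 residual without the block. Its p values thus rest almost wholly on that shared spread, and smaller ones are not stronger evidence for a gene. The fitted peaks of the 255 were spread over day and night, 128 between ZT0 and ZT12 and 127 between ZT12 and ZT24. They crowded around dawn and early night: 88 fell between ZT0 and ZT4 and 60 between ZT12 and ZT16, against 9 between ZT8 and ZT12. The median swing was 2.07 on the log2 scale among these genes and 0.63 among all genes tested. In the Hr51/ct cells 295 of 6324 genes passed, 191 of them among the 255, and in the summed other clock cells 45 of the 255 passed.

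A call could rest on few cells. Of the 255 genes, 27 either had UMIs in fewer than 10 NPF/cry cells or had more than 20% of their UMIs in 1 cell, and 228 were spread more widely. Among the largest fitted swings were such genes. Cyp313a1 had all its 102 UMIs in 1 cell of ZT14 replicate 2, CCHa1 all 43 in 1 cell of ZT06 replicate 2, and EbpIII 496 of its 503 UMIs (98.6%) in 1 cell of ZT14 replicate 2.

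**Figure D3:**
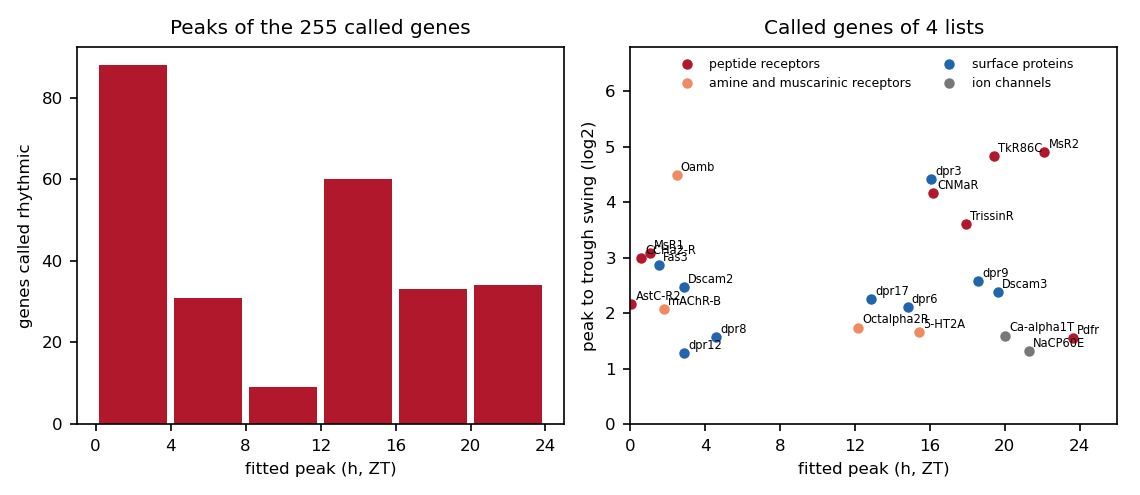
Left, number of the 255 genes called rhythmic in NPF/cry cells by fitted peak in 4-hour bins (88 between ZT0 and ZT4, 60 between ZT12 and ZT16, 9 between ZT8 and ZT12). Right, fitted swing (log2) against fitted peak (Zeitgeber time, hours) for the called members of 4 gene lists, each point being 1 gene.

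Among called genes that reached 2 TP10K in some library, the 12 with the largest swing held, beside EbpIII, 3 receptors, 1 peptide, a channel and 6 genes known by number only. CG15628 stood at 7.83 TP10K at ZT02, 15.9 and 14.3 at ZT06, 51.5 at ZT10, 85.3 and 89.2 at ZT14, 44.2 at ZT18, and 8.19 and 10.1 at ZT22 (swing 3.64, peak ZT13.4, edgeR adjusted p = 1.64e-08). CG32547 (swing 3.70, peak ZT13.7), whose exons overlap a gene on the other strand, and CG31324 (4.48, ZT13.9) were likewise high at ZT14, with 6.51 and 8.55 TP10K and 11.4 and 10.6 TP10K in the ZT14 libraries. CG17777 followed the opposite course, with 64.6 and 69.0 TP10K at ZT22 and 47.9 at ZT02 against 5.79 and 4.32 at ZT14 (swing 3.67, peak ZT23.8, adjusted p = 2.83e-06). CG32369 (4.24, ZT23.4), CG43902 (5.44, ZT3.1) and the bestrophin chloride channel gene Best1 (3.70, ZT2.7) also peaked around dawn.

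Receptors for peptides and amines were prominent among the genes that cycled. Oamb, an octopamine receptor, stood at 3.49 TP10K at ZT02, 1.5 and 3.31 at ZT06, 0.622 at ZT10, 0 and 0.153 at ZT14, 0.397 at ZT18, and 2.19 and 1.71 at ZT22, with no overlap between the libraries of ZT10 to ZT18 and the others. Its fitted swing was 4.49 on the log2 scale with a peak at ZT2.5 (edgeR, adjusted p = 6.63e-06), and its 739 UMIs came from 190 cells. In the Hr51/ct cells the swing of Oamb was 3.73 with a peak at ZT2.6 (adjusted p = 8.84e-07).

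The 2 receptors for the peptide myosuppressin peaked at the end of the night or at dawn. MsR2 stood at 2.25 and 1.39 TP10K at ZT22 and at or below 0.510 in every other library (swing 4.91, peak ZT22.1, edgeR adjusted p = 8.65e-05). MsR1 had 0.830 TP10K at ZT02 and 0.63 and 1.39 at ZT22, against 0 and 0.0956 at ZT14 (swing 3.08, peak ZT1.0, adjusted p = 0.000968). AstC-R2, a receptor for allatostatin C, had 10.6 TP10K at ZT02, 9.94 and 5.45 at ZT22 and 8.0 at ZT18, against 1.59 and 2.41 at ZT14 (swing 2.16, fitted peak just after ZT0, adjusted p = 0.00221). CCHa2-R, a receptor for the peptide CCHamide-2, peaked at ZT0.6 with a swing of 2.99 (adjusted p = 0.000178).

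Other receptors peaked at night. TrissinR, the receptor for the peptide Trissin, stood at 0.723 TP10K at ZT02, 0.581 and 0.371 at ZT06, 0.707 at ZT10, 2.61 and 3.06 at ZT14, 4.88 at ZT18, and 3.75 and 0.747 at ZT22, so that the replicates of ZT22 lay far apart. Its swing was 3.61 with a peak at ZT17.9 (edgeR, adjusted p = 2.85e-05), and in the Hr51/ct cells, where the level was 0.211 to 3.03 TP10K, it was 3.96 with a peak at ZT18.0 (adjusted p = 8.84e-07). TkR86C, a tachykinin-family receptor, peaked at ZT19.4 with a swing of 4.83 (adjusted p = 0.000589) from 70 UMIs in 44 cells. The serotonin receptor 5-HT2A stood at 5.5 and 2.64 TP10K at ZT14 and 4.54 at ZT18, against 0.897 at ZT02 (swing 1.65, peak ZT15.4, adjusted p = 0.0115), and without ZT14 replicate 1 or without ZT18 replicate 1 it no longer passed (adjusted p = 0.0596 and 0.0688), nor with at least 5 NPF UMIs per cell (0.138) or in libraries of at least 10 NPF/cry cells (0.0625).

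**Figure D4:**
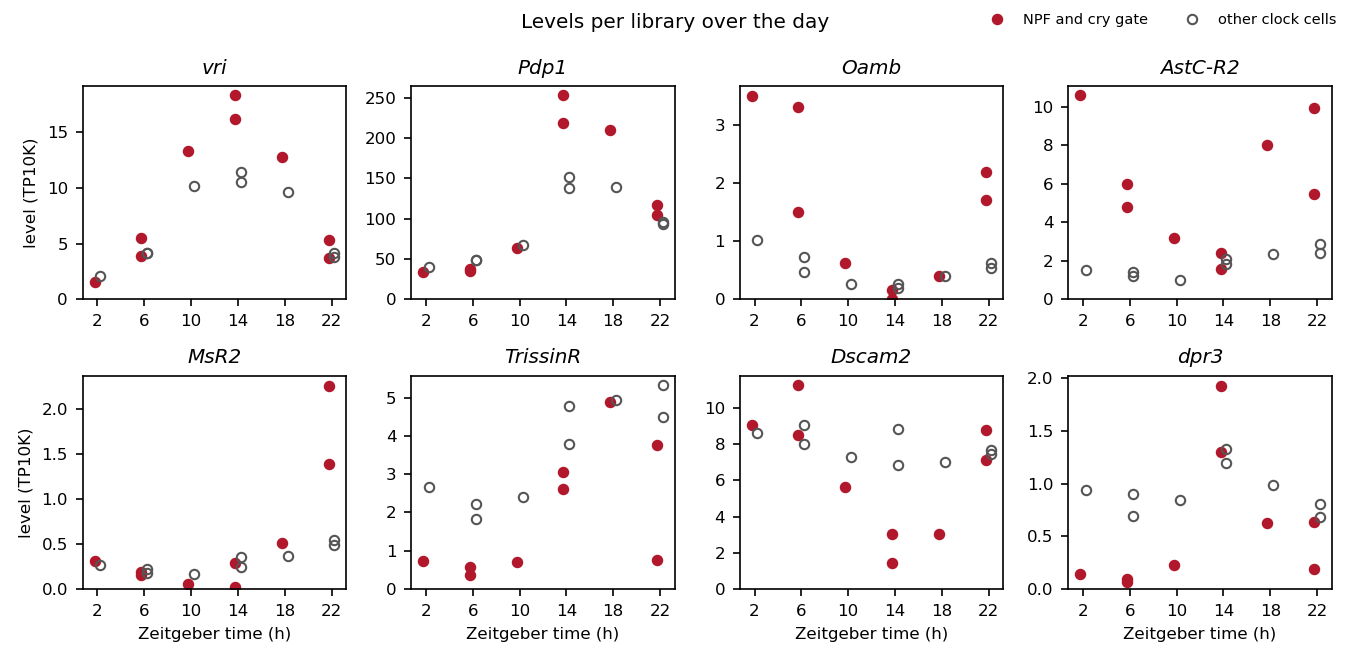
Levels (UMIs per 10000, linear axes from 0) of 8 cycling genes by Zeitgeber time, each point being 1 library, in NPF/cry cells (filled) and in other clock cells (open). Oamb stands at 3.49 at ZT02 and at 0 and 0.153 at ZT14 in NPF/cry cells, and Pdp1 reaches 253 there at ZT14.

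As a list, 8 of the 21 peptide receptors tested passed the rhythm test (255 of 6187 over all genes), and 10 did with the date block (438 of 6187). The 2 not yet named were CNMaR (swing 4.16, edgeR adjusted p = 0.0399) and Pdfr, the receptor for PDF (1.55, adjusted p = 0.0232). The call of CNMaR was lost in 9 of 19 alternatives, among them the date block (0.210), and that of Pdfr in 8 of 20, among them the Hr51/ct cells (swing 0.90, adjusted p = 0.258) and cells of up to 15000 UMIs (0.121). The receptor for NPF, NPFR, lay between 0 and 0.813 TP10K and did not pass (adjusted p = 0.210), but it passed in 7 of 20 alternatives, among them the date block (0.0213) and the Hr51/ct cells (swing 2.41, adjusted p = 0.0202). Of 17 amine and muscarinic receptors 4 passed, and 7 with the date block. The last 2 of the 4 were mAChR-B (swing 2.07, adjusted p = 0.018) and Octalpha2R (1.74, adjusted p = 0.0227), each of which lost the call in 5 of 20 alternatives, with an adjusted p of up to 0.208 and 0.20. The median swing was 2.16 over the peptide receptors and 1.13 over the amine and muscarinic receptors, beside 0.63 over all genes. These medians cover all members tested, called or not. The glia markers, low in NPF/cry cells, had 3 genes tested, 0 calls and a median swing of 3.28. A large median swing thus does not by itself show cycling.

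Proctolin (Proc) was the neuropeptide outside the rule that was called from many cells. It stood at 16.7 TP10K at ZT02, 11.9 and 14.8 at ZT06, 15.1 at ZT10, 0.290 and 1.43 at ZT14, 1.47 at ZT18, and 8.38 and 16.1 at ZT22, the 3 libraries of ZT14 and ZT18 being below all others. The fit gave a swing of 3.75 with a peak at ZT3.6 (edgeR, adjusted p = 0.00543), from 239 cells. The call was lost with DESeq2 (adjusted p = 0.107) and in the Hr51/ct cells (0.0622, swing 3.29). In those cells ZT02 replicate 1, which had 5 such cells, stood at 2.05 TP10K, against 18.2 in ZT02 replicate 2.

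Of 12 neuropeptide genes tested, 4 passed (7 with the date block), beside 255 of 6187 over all genes (438 with the date block). However, CCHa1, CNMa and Dh31 each had over 90% of their UMIs in a single cell. That leaves Proc, so the count does not set the list apart from all genes. Dh44, a diuretic hormone known to act in the output of the clock, stood at 8.86 TP10K at ZT02 and 8.82 and 5.66 at ZT22, against 4.20 and 3.29 at ZT14 (swing 1.15, edgeR adjusted p = 0.0547), just above the threshold. It passed with DESeq2 (0.0267), with the date block (0.000221), and in the Hr51/ct cells with edgeR (swing 1.57, peak ZT1.6, adjusted p = 0.0129). Nplp1, another peptide precursor, lay between 1.01 and 6.46 TP10K and did not pass (adjusted p = 0.116), but passed with the date block (0.000431) and in the Hr51/ct cells (0.0134).

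Cell surface proteins had 9 calls among 29 tested (14 with the date block), beside 4.12% of all genes, with a median swing of 1.57. That is the largest number of calls, but peptide receptors had a larger share (8 of 21) and a larger median swing (2.16). The dpr proteins, immunoglobulin-family partners of the DIP proteins, did not peak together. The fitted peaks of dpr17, dpr6, dpr3 and dpr9 lay at ZT12.9, ZT14.8, ZT16.1 and ZT18.6, and those of dpr12 and dpr8 at ZT2.9 and ZT4.6. For dpr3, 3 libraries of ITP-high cells stood at 1.16, 5.91 and 7.35 TP10K against 0.0442, 0 and 1.85 in the other NPF/cry cells of the same libraries, and its call was kept without the ITP-high cells (swing 4.71, edgeR adjusted p = 0.000106). dpr6 stood at 8.69 and 8.66 TP10K at ZT14 and 4.20 at ZT18, against 1.39 to 3.08 in the other 6 libraries (swing 2.10, edgeR adjusted p = 0.000762). Dscam2, a homophilic recognition protein, went the other way with 1.45 to 3.06 TP10K at ZT14 and ZT18 and 5.63 to 11.3 in the others (swing 2.46, peak ZT2.9, adjusted p = 0.000178). The adhesion protein Fas3 peaked at ZT1.5 (swing 2.87, adjusted p = 0.00224) and Dscam3 at ZT19.6 (2.38, adjusted p = 0.0139). Calls were lost in 6 of 20 alternatives for dpr12 (swing 0.69 and adjusted p = 0.407 without ZT02 replicate 2), in 4 for Dscam3, in 3 for dpr9 and in 2 for dpr8.

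The ion channel list and the list of clock kinases and turnover genes gave 2 calls each, beside 4.12% of all genes called. Of 23 ion channel genes 2 passed (5 with the date block): the T-type calcium channel Ca-alpha1T, with 26.8 and 21.7 TP10K at ZT14, 30.6 at ZT18, and 35.8 and 27.7 at ZT22, against 10.6 at ZT10 (swing 1.60, peak ZT20.0, edgeR adjusted p = 0.000793), and NaCP60E (1.32, ZT21.3, adjusted p = 0.0092), whose exons overlap those of pain on the other strand. NaCP60E lost the call in 4 of 20 alternatives and had a swing of 0.57 (adjusted p = 0.965) in cells with at least 5 NPF UMIs. Of 11 clock kinases and turnover genes 2 passed, the PER kinase nmo (swing 1.30, peak ZT3.6, adjusted p = 0.0268) and Usp8, a ubiquitin protease that acts on CLK (3.08, ZT14.9, adjusted p = 0.00319), which stood at 3.91 and 1.11 TP10K at ZT14 and no longer passed in cells of up to 15000 UMIs (0.0702). The call of nmo was lost in 7 of 20 alternatives, with an adjusted p of 0.132 in cells of up to 15000 UMIs and 0.125 in Hr51/ct cells. Tbh, the enzyme that makes octopamine from tyramine, passed with a peak at ZT1.1 (1.61, adjusted p = 0.0312) but lost the call under 6 alternatives, with an adjusted p of 0.379 in cells of up to 15000 UMIs.

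No member passed with edgeR in 3 lists: 0 of 7 peptide processing genes (2 at an unadjusted p under 0.05), 0 of 5 activity-regulated genes (2) and 0 of 15 transcription factors (3), and DESeq2 called none of them either. Of all genes 4.12% passed, so 0 calls in lists this short do not set them apart. With the date block 2 of 7 (amon and IA-2), 2 of 5 (sr and Hr38) and 3 of 15 (Eip75B, br and chinmo) passed. Among the activity-regulated genes, whose RNA is known to follow neuronal firing, sr stood at 2.46 and 4.30 TP10K at ZT14 and between 7.09 and 10.5 in the other libraries (adjusted p = 0.162, and 0.0185 with the date block), and Hr38, whose exons overlap those of CG2617 on the other strand, between 1.88 and 18 (adjusted p = 0.869, and 0.0381 with the date block). Flies were dissected in saline with neuronal activity inhibitors. Hr51 and ct themselves did not pass (adjusted p = 0.527 and 0.388).

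The rhythm of each gene was then compared with that of the other clock cells of the same libraries. The interaction test called 322 of 9615 genes (3.35%; edgeR with library as a block, 814 at an unadjusted p under 0.05), but this count depended on the fit. It was 28 without the block, 109 with DESeq2 (92 of them shared), 103 when restricted to genes spread over cells, and 197 without ZT14 replicate 2. The fit with the block used 1 spread shared by all genes, so its smaller p values are not stronger evidence for a gene. Of the 5 genes with the smallest p, Cyp313a1, CG6409, EbpIII and CNMa had 93.3% or more of their NPF/cry UMIs in 1 cell, and ITP was held almost wholly by the ITP-high cells.

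Genes spread over many cells followed. The chloride channel gene pHCl-1 stood at 5.65 and 10.3 TP10K at ZT14 and 6.41 at ZT18, against 0.919 to 1.49 at ZT02 and ZT06 in NPF/cry cells, whereas it stayed between 2.88 and 4.30 TP10K in other clock cells. The fitted difference curve had a swing of 2.83 on the log2 scale (edgeR, adjusted p = 7.51e-22 with the block and 0.00705 without it). CG7991 stood at 4.31 TP10K at ZT18 and 4.44 and 2.35 at ZT22 in NPF/cry cells, against 0.676 to 1.01 throughout in other clock cells (adjusted p = 4.58e-21 and 0.00975 without the block). CG15236 stood at 6.84 TP10K at ZT02 and 0.641 in ZT22 replicate 2 in NPF/cry cells, against 2.35 to 5.25 in other clock cells (6.77e-21 and 0.0436).

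Several genes of the lists differed from other clock cells in rhythm too. Dscam2 ran between 6.86 and 9.06 TP10K in other clock cells with a fitted swing of 0.27, beside 2.46 in NPF/cry cells (edgeR, adjusted p of the difference = 6.90e-13, 0.0431 without the block and 7.14e-06 with DESeq2). For dpr3, CCHa2-R and TkR86C the difference passed both with the block (6.01e-14, 4.70e-07 and 4.35e-10) and without it (0.0206, 0.0296 and 0.0431). Pdp1 swung by 1.87 in other clock cells and by 3.08 in NPF/cry cells (1.81e-08), a call that was lost without the block (0.117) and with at least 5 NPF UMIs (0.122). For vri, with swings of 2.93 in NPF/cry cells and 2.20 in other clock cells, the difference did not pass (0.122), though it did with DESeq2 (0.0205) and in the Hr51/ct cells (0.0288). The other clock cells are a mixture of types, so a small swing of their sum does not show that no type among them cycles.

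In overall level, more genes were called lower than higher in NPF/cry cells, but the choice of genes favoured lower calls. Of 9615 genes, 209 were higher than in other clock cells (2.17%) and 1586 lower (16.5%). A call needed a 2-fold difference and an adjusted p under 0.05 (edgeR with library as a block, 9 libraries). The median log2 difference was -0.17 over all genes. The rhythm fit of NPF/cry cells alone tested 6187 genes, so many of the 9615 entered only through the UMIs of other clock cells. Such genes were low in NPF/cry cells from the start. The other clock cells are also a mixture of types. The counts thus do not show in which direction the groups differ more. Hr51 stood at 3.03 ± 0.66 TP10K in NPF/cry cells and 0.166 ± 0.0504 in other clock cells (SD, n = 9 each), a log2 difference of 4.22 ± 0.17 (SE) with edgeR (adjusted p = 2.04e-12). For ct the levels were 7.85 ± 1.54 and 1.95 ± 0.408 TP10K (2.08 ± 0.11, adjusted p = 9.01e-11). Both were named as markers of this group from these same data, so their tests lend the label no support.

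Beside Hr51, genes with the largest folds were CG14340, with 1.60 to 3.50 TP10K in the 9 libraries of NPF/cry cells and 0.0137 to 0.258 in those of other clock cells (log2 difference 5.55, edgeR adjusted p = 1.97e-10), and CG13950 (5.07). Developmental regulators were among them. The Pax6 gene toy stood at 5.23 to 9.12 against 0.622 to 1.44 TP10K (2.83, adjusted p = 6.46e-12), and Bx, a LIM-only protein whose exons overlap those of HisRS, at 5.84 to 11.4 against 0.877 to 1.87 (2.90). The corepressor gene nvy (2.60), CG42674 (2.83), CG8745 (2.94), the prolyl isomerase gene Fkbp14 (2.96) and 5-HT2A (2.51) completed the 10. For each of these 10 genes every library was higher in NPF/cry cells.

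Of 26 transcription factors tested, 4 were higher (hth, fru and the label's own markers Hr51 and ct) and 14 lower. Over all genes 2.17% were called higher and 16.5% lower. The rhythm fit of NPF/cry cells alone tested 15 factors, and 11 had too few UMIs there. Those 11 entered here only through other clock cells, kn and pdm3 among them. The 14 lower calls thus do not by themselves set the list apart. The homeodomain gene hth stood at 18.6 to 27.1 TP10K in NPF/cry cells and 6.0 to 9.08 in other clock cells (log2 difference 1.68, edgeR adjusted p = 6.77e-11), and fru, the courtship regulator, at 8.51 to 21.4 against 3.46 to 6.03 (1.34, adjusted p = 1.31e-07). The COE factor gene kn had no UMI in the NPF/cry cells of any library, against 0.881 to 1.59 TP10K in other clock cells; with 3 counts over the group as the floor the log2 ratio is -7.35 or lower. The POU gene pdm3 had 5 UMIs in all (log2 difference -8.01, adjusted p = 8.68e-13).

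Acetylcholine genes were slightly higher and glutamate genes lower. VAChT, the vesicular acetylcholine transporter, stood at 3.31 to 5.45 TP10K in NPF/cry cells and 2.03 to 3.42 in other clock cells (log2 difference 0.88, edgeR adjusted p = 4.06e-06), which is under 2-fold, and ChAT at 1.59 to 2.72 against 1.39 to 2.15 (0.46, adjusted p = 0.00236). These genes share exons on the same strand, so their UMIs may not be fully separate. VGlut was lower, 0 to 1.35 against 10.7 to 15.5 TP10K (-3.90, adjusted p = 3.41e-11). Of the 33 NPF/cry cells with a VGlut UMI, 19 were among the 22 without Hr51 and ct, and exons of VGlut overlap a gene on the other strand. Of 14 transmitter and monoamine genes 1 was higher and 8 lower, beside 2.17% and 16.5% of all genes. The rhythm fit of NPF/cry cells alone tested 10 of these genes, so the others entered only through other clock cells. The higher gene was Tdc2, the enzyme that makes tyramine, at 0.107 to 2.03 TP10K against 0.0758 to 0.216 (2.69, adjusted p = 8.01e-08).

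Of 24 neuropeptide genes tested 2 were higher, ITP and Proc, and 15 lower. Proc stood at 9.58 ± 6.86 TP10K in NPF/cry cells and 1.83 ± 1.04 in other clock cells (SD, n = 9 each; log2 difference 2.16 ± 0.27 SE, edgeR adjusted p = 3.85e-06), higher in 8 of 9 libraries, the exception being ZT14 replicate 1. ITP was higher in 5 of 9 libraries and its call (4.55, adjusted p = 0.0268) turned to -5.10 without the 13 ITP-high cells. The call was also lost without any 1 of 5 libraries (ZT02 replicate 2, ZT06 replicate 1, ZT10, ZT14 replicate 1 and ZT14 replicate 2; edgeR, adjusted p = 0.0555 to 0.0827). Allatostatin A (AstA) was near 0, with 19 UMIs in all, against 7.53 to 48.6 TP10K (-8.98), and sNPF, short neuropeptide F, at 0 to 0.541 against 3.35 to 7.05 (-4.81). The median log2 difference of the list was -4.75 with genes at 0 set to their floor, beside -0.17 over all genes. That median and the 15 lower calls include genes that entered only through other clock cells.

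Receptors were called in both directions, beside 2.17% of all genes called higher and 16.5% called lower. Of 29 peptide receptors 5 were higher, among them both drosulfakinin receptors, CCKLR-17D3 (log2 difference 2.02, edgeR adjusted p = 3.19e-08) and CCKLR-17D1 (1.96), with AstC-R2 (1.66), CCHa2-R (1.72) and MsR1 (1.25), and 15 were lower, among them NPFR (-1.20, adjusted p = 0.00194). TrissinR was lower by 1.17 (adjusted p = 0.000662), but only by 0.37 when other clock cells with a cry UMI were used (adjusted p = 0.185), and without ZT06 replicate 2 it was under 2-fold (-0.99). Of 18 amine and muscarinic receptors 3 were higher, 5-HT2A, Oamb (1.51) and TyrR (1.36), and 4 lower, among them the dopamine receptor Dop2R, which stood at 6.19 to 15.6 against 34.4 to 51.7 TP10K (-1.83, adjusted p = 1.97e-10).

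The receptor 5-HT2A, named above for its rhythm, stood at 0.897 to 5.5 TP10K in the libraries of NPF/cry cells and 0.245 to 0.698 in those of other clock cells, without overlap. Among ion channels 1 of 27 was higher, Ca-alpha1T, with 10.6 to 35.8 against 3.73 to 6.99 TP10K (log2 difference 1.90, edgeR adjusted p = 5.82e-10), and 4 lower. Among 32 surface proteins 3 were higher, DIP-delta (1.94), dpr10 (1.82) and dpr6 (1.40), and 14 lower. Of 7 peptide processing genes 0 passed in either direction (3 at an unadjusted p under 0.05, 0 with DESeq2). Over all genes 2.17% were called higher and 16.5% lower. The ion channel counts are near these shares, and 0 calls in a list as short as peptide processing do not set it apart.

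Against the Pdf clock cells, the calls in the 2 directions were more even in number. Of 6845 genes 435 were at least 2-fold higher (6.36%) and 487 at least 2-fold lower (7.11%; edgeR, 8 libraries with at least 5 cells of each group, median log2 difference -0.10). The homeodomain gene pros, whose exons overlap a gene on the other strand, stood at 183 to 261 TP10K in NPF/cry cells and 0.0630 to 23.0 in Pdf clock cells (log2 difference 7.32, adjusted p = 2.85e-06). The SOX-family genes Sox21b (9.04), D (7.81) and SoxN (6.51) were all higher in each of the 8 libraries, as were ct (6.76), CG14340 (8.30), Octbeta1R (7.73) and Pde11 (7.35).

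ChAT and VAChT were nearly absent from Pdf clock cells, with at most 0.175 and 0.841 TP10K, against 1.75 to 2.72 and 3.31 to 5.45 in NPF/cry cells (edgeR, log2 difference 6.36 and 5.97). Ca-alpha1T stood at 10.6 to 35.8 TP10K against 0 to 0.411 (8.13, adjusted p = 1.04e-07). The peptide Dh44 stood at 3.29 to 8.86 against 0 to 1.05 TP10K (5.33, adjusted p = 1.93e-05), and 4 of 13 neuropeptides were higher and 2 lower. Of the lists, 13 of 18 amine and muscarinic receptors were higher and 1 lower, and 14 of 30 surface proteins higher and 8 lower. Over all genes 6.36% were higher and 7.11% lower.

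Genes lower in NPF/cry cells than in Pdf clock cells included Dh31, another peptide, at 0 to 1.70 against 3.02 to 59.9 TP10K (log2 difference -8.28, edgeR adjusted p = 3.82e-07), the kinase gene Pka-C3 (-7.34), the guidance receptor gene robo3 (-7.05), the homeodomain gene zfh2 (-6.78), beat-Ic (-6.99), twit (-9.01), CG9650 (-6.81), Ldh (-6.78) and bnb (-6.61). The zinc finger gene opa had no UMI in NPF/cry cells, against 0.812 to 1.97 TP10K, a log2 ratio of -7.43 or lower at a floor of 3 counts over the group.

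Some genes that set NPF/cry cells apart from other clock cells were shared with Pdf clock cells. hth stood at 18.6 to 27.1 TP10K in NPF/cry cells and 14.7 to 29.7 in Pdf clock cells (edgeR, log2 difference -0.25 ± 0.13 SE, adjusted p = 0.195), toy at 5.23 to 9.12 against 3.86 to 7.12 (0.20 ± 0.16, adjusted p = 0.399), and Bx at 5.84 to 10.7 against 3.55 to 10.6 (0.14 ± 0.21, adjusted p = 0.681). A p above the threshold does not show that these levels are equal. Hr51 was higher by 0.97 ± 0.24 (adjusted p = 0.00824), just under 2-fold.

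**Figure D5:**
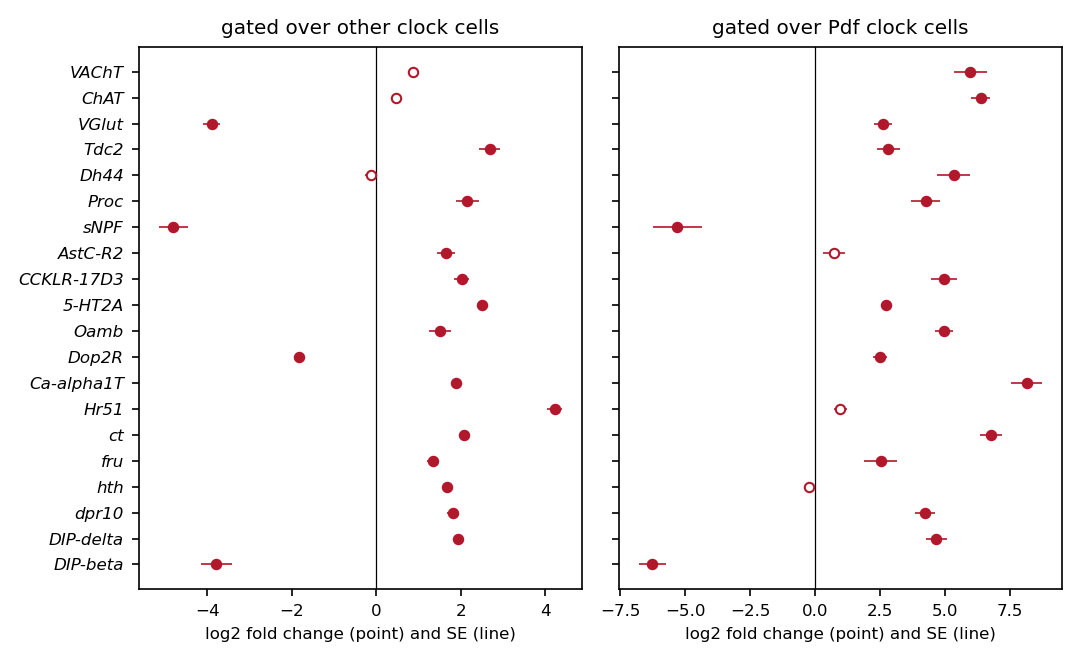
Log2 differences in level (points) with their SE (lines) for 20 genes, in NPF/cry cells over other clock cells (left) and over Pdf clock cells (right), filled where the adjusted p is under 0.05 and the difference at least 2-fold. Hr51 lies at 4.22 on the left and 0.97 on the right, and Ca-alpha1T at 1.90 and 8.13.

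Within the NPF/cry cells, the ITP-high cells were compared with the rest in the 3 libraries with at least 2 of them (ZT02 replicate 2 with 7, ZT14 replicates 1 and 2 with 2 each). ITP chose the split and is not tested; its exons overlap those of CG4622 on the other strand. Of 4590 genes 37 were at least 2-fold higher (0.806%) and 63 lower (1.37%; edgeR with library as a block, median log2 difference -0.34). This fit had 2 residual degrees of freedom and used 1 spread shared by all genes. Its SE and p values thus do not measure a gene's own spread between libraries, and smaller p values are not stronger evidence for a gene. Leaving out ZT02 replicate 2 gave 17 and 18, ZT14 replicate 1 gave 23 and 21, and ZT14 replicate 2 gave 26 and 32. ITP stood at 1568, 1266 and 1429 TP10K in ITP-high cells, and at 0.0295, 0 and 0.0194 in the other NPF/cry cells.

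The ITP-high cells kept Hr51 but lacked other genes of the group. Hr51 stood at 1.45, 4.60 and 2.45 TP10K in ITP-high cells and 2.87, 3.16 and 2.54 in the other NPF/cry cells (edgeR, log2 difference -0.40 ± 0.61 SE, adjusted p = 0.978), whereas ct stood at 1.16, 0 and 0 against 10.4, 6.50 and 7.15 (-3.77, adjusted p = 1.07e-05). pros stood at 15.3, 0 and 0 TP10K in ITP-high cells, against 206, 222 and 221 in the others (-5.94 ± 0.44 SE, adjusted p = 5.98e-37). Dh44 stood at 0, 1.31 and 0 against 9.76, 5.01 and 3.34 (-4.92, adjusted p = 1.07e-05, and 0.280 without ZT02 replicate 2).

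Genes without a UMI in the ITP-high cells included CG14340, at 2.87, 4.46 and 1.92 TP10K in the others, CG12290, and Con, the gene of the adhesion protein connectin. With 3 counts over the group as the floor, the log2 ratio was -2.97 or lower for CG14340, -3.59 for CG12290 and -2.54 for Con, and without ZT02 replicate 2 the calls of CG14340 and Con were lost (edgeR, adjusted p = 0.0817 and 0.392). The gene sty was lower too (log2 difference -4.40, adjusted p = 0.000184), a call also lost without that library (0.150). Genes higher in ITP-high cells included CG15765, at 7.27, 19 and 23.3 TP10K against 0.265, 0.186 and 0.350 (5.34, adjusted p = 6.20e-18), the metalloprotease gene Mmp2, at 4.51, 36.1 and 88.2 against 2.42, 0.743 and 0.330 (4.64, adjusted p = 2.95e-13), and the neprilysin gene Nep1 (4.53). Pdfr stood at 5.38, 0.657 and 4.90 TP10K in ITP-high cells and 1.21, 1.11 and 0.796 in the others, which did not pass (1.69 ± 0.64 SE, adjusted p = 0.204). The ITP-high cells were shallower, with a median of 7297 UMIs, and their NPF level was 36.5, 22.3 and 8.58 TP10K against 42.8, 6.13 and 5.85 in the others.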

How the data were processed

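Single-cell libraries from 10 collections were analysed. Per the study's methods, the authors dissociated brains, sorted GFP-positive cells, made libraries with the 10X Chromium 3′ kit (version 3), mapped reads with Cell Ranger to dm6, kept cells by their UMI and gene numbers and excluded doublets found by Scrublet. Whether that came before deposit is not given in the sources used here, and no doublet caller was run. The paper gives 2 upper limits of UMIs per cell, 15000 and a higher one that the deposited cells keep to. NPF/cry cells held up to 24954, and 15000 was used as an alternative. Versions of the mapper and use of strand are not given in the sources used here. The authors deposited raw UMI counts per gene and cell, and these counts were used as deposited. Bulk libraries (6, from 3 drivers) were not used.

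Cells were chosen by the rule stated in the report, and UMI counts were summed per library for the 9 libraries with at least 5 NPF/cry cells. Genes with at least 20 counts were tested with edgeR 4.0.16 (quasi-likelihood, TMM) in R 4.3.3 and Benjamini-Hochberg adjustment over all genes tested: a 24 h cosine curve for rhythm, its interaction with cell group for the difference in rhythm, and group for levels, with the library as a block in the last 2, since both groups come from the same library. A level call needed an adjusted p under 0.05 and a 2-fold difference. In the interaction and ITP-high fits 1 spread was shared by all genes. In the rhythm fits with the date block the shared spread outweighed each gene's own. It held 549.5 against 2 degrees of freedom in NPF/cry cells and 47.3 against 3 in Hr51/ct cells. The replicate is a library of pooled flies. The labels give each library a collection date that 2 libraries share, so the date pairs them. Residuals of same-day libraries from the rhythm fit correlated at 0.226, 0.121, 0.066 and 0.052 over 2466 genes (median of the other pairs -0.100). The rhythm fit with the date as a block is given where it changes a call, and the library block of the other fits also covers the date. TP10K is UMIs per 10000. Sums were made with Python 3.11.15 and pandas 2.3.3. Alternatives included DESeq2 1.42.0, no filter on low counts, no block, other cell cutoffs and leaving out each library. On simulated counts, 93.5% of 200 changed genes were recovered for rhythm, 34.5% for the difference in rhythm (both at a swing of 2 log2 units) and 100% for level (log2 fold of 1.5). The changed genes held at least 200 UMIs in NPF/cry cells, and all genes of a group had the same spread. Recovery of genes nearer the minimum of 20 counts was not tested.

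Named genes were the members of fixed lists, the 12 called genes with the largest swing and at least 2 TP10K in some library, the 10 genes of largest fold in each direction changed alike in every library with at least 1 TP10K in the higher group, and the 8 with the smallest p for the difference in rhythm. Members and lists were chosen with earlier results of these data known. The Hr51/ct cells, with and without the date block, the fits without ITP-high or VGlut cells, and the restriction to genes spread over cells (UMIs in at least 10 cells and no more than 20% in 1) were chosen after the data had been seen. Of 297 gene names, 292 matched the Ensembl annotation used for exon overlaps. Intervals and floors cover counting error only.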

Additional observations from a re-analysis of the deposited data

Results flagged for a closer look

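The difference in rhythm between NPF/cry cells and other clock cells passed edgeR's test with the library block (adjusted p after each name) for ITP (1.63e-67), Cyp313a1 (3.21e-46), CG6409 (1.08e-39), EbpIII (2.84e-30) and CNMa (4.92e-23), whose UMIs lay in few cells, and for pHCl-1 (7.51e-22), CG7991 (4.58e-21) and CG15236 (6.77e-21). It also passed for the peptide receptors TrissinR (4.56e-10), TkR86C (4.35e-10), AstC-R2 (6.44e-09), CCHa2-R (4.7e-07) and MsR2 (5.56e-07), and for Oamb (8.58e-07). Among surface proteins it passed for dpr3 (6.01e-14), Dscam2 (6.9e-13), dpr6 (4.71e-12) and Fas3 (3.72e-08). Without the library block the call was lost for TrissinR (0.198), AstC-R2 (0.398), MsR2 (0.117), Oamb (0.195), dpr6 (0.125), Fas3 (0.288), Pdp1 (0.117), Proc (0.993), nmo (0.783), Nplp1 (0.742) and Dh44 (0.480). Oamb and Proc also lost it with DESeq2 (0.0589 and 0.0744) and among genes spread over cells (0.0530 and 0.127). Nplp1 lost it in 6 of 18 alternatives, with a swing of 0.35 in cells with at least 5 NPF UMIs, and Dh44 in 3, among them without ZT14 replicate 2 (0.148). The remaining genes that passed with the block were Pdp1 (1.81e-08), Proc (9.45e-08), nmo (0.000195), Nplp1 (0.000631) and Dh44 (0.000881). The p values with the block rest on 1 spread shared by all genes and not on a gene's own spread.

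Of 40 comparisons, 20 were with other clock cells and 20 with Pdf clock cells. In 3 of them, all with Pdf clock cells, 1 library lay apart from the others, and chance gives about 1 in 20. For ChAT the log2 ratio, with 0.1 TP10K added to both levels, was 3.36 in ZT18 replicate 1 and 4.21 to 4.76 in the others (gap over range 0.607). For Ca-alpha1T it was 4.48 in ZT06 replicate 2 and 6.57 to 8.26 in the others (0.554). For Pde11 it was 5.73 in ZT02 replicate 2 and 3.90 to 4.75 in the others (0.533). Pde11 stood at 0 in the Pdf clock cells of ZT02 replicate 2, so its ratio there depends on the added 0.1.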

How the results depend on the processing

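The count of rhythmic genes (255) was 448 without the filter on low counts, 144 in cells of up to 15000 UMIs, and 182 to 289 with 1 library left out. With collection date as a replicate block it was 438, and in the Hr51/ct cells with that block 449, of which 208 were among the 255. Calls that the block changed among the genes described are given in the report.

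The count for the difference in rhythm (322) was 109 with DESeq2, 159 with at least 5 NPF UMIs, 28 with no replicate block (library), 103 for genes spread over cells, and 197 to 336 with 1 library left out, the lowest without ZT14 replicate 2. The fitted difference turned to another time of day, without a call, for ITP (swing 2.79 in Hr51/ct cells, 4.14 without ITP-high cells), Cyp313a1 (14.7 without ZT14 replicate 2, 19.3 with at least 5 NPF UMIs, 2.33 in Hr51/ct cells), CG6409 (10.4 with at least 5 NPF UMIs, 1.87 in Hr51/ct cells), EbpIII (2.27 without ZT14 replicate 2, 18 with at least 5 NPF UMIs, 4.88 in Hr51/ct cells) and CNMa (7.46 without ZT02 replicate 2, 10.6 in cells of up to 15000 UMIs). With another library left out, the calls of Cyp313a1, EbpIII and CNMa were kept, with swings of up to 42.8, 11.9 and 30.3. Over the single genes followed under all alternatives, 371 values for the difference in rhythm kept direction and call, 37 lost the call and 2 gained it. For levels against other clock cells these numbers were 988, 20 and 14.

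The level of ITP against other clock cells turned to -7.48 in Hr51/ct cells and -5.10 without ITP-high cells, which held nearly all its UMIs. With 1 library left out, counts against other clock cells were 186 to 218 higher and 1366 to 1643 lower, and against Pdf clock cells 400 to 495 higher and 425 to 498 lower. In ITP-high cells, 37 higher and 63 lower became 20 and 21 with DESeq2, 24 and 20 with no replicate block (library), and 17 to 26 and 18 to 32 with 1 library left out. Where no cause is named, the cause was not tested. Few cells at night (83 of 314) limit what can be read there.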
